A study of Arabidopsis thaliana with 9 samples.

Results

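DME, the DNA demethylase DEMETER, and MPC, an imprinted gene that DME is known to activate, were examined in 3 lines of Arabidopsis thaliana. Of the 22746 probe sets on the array other than control probe sets, 2 stand for DME (AT5G04560) and 1 for MPC (AT3G19350) here. They were named by gene, but the choice was made with earlier results of these data known. The DME probe sets are called bright and dim after their signal. The table of probe genes assigns DME one more, the dimmest, whose values are shown for comparison.

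DME is a DNA glycosylase that cuts 5-methylcytosine out of DNA, after which the base excision repair pathway fills the gap with unmethylated cytosine. It is best known from the central cell of the ovule, where it removes methylation from maternal alleles that are then expressed in the endosperm, the nourishing tissue of the seed. MPC is one of these maternally expressed genes, and its product resembles the C-terminal part of poly(A)-binding proteins. Outside the seed, related glycosylases such as ROS1 do much of the demethylation in Arabidopsis, and the maintenance methyltransferase MET1 works in the opposite direction.

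Total RNA had been taken from whole plants at developmental stage 1.04. The plates had been kept 17 days at 21 C (light for 16 h, dark for 8 h a day). This RNA was the starting material for Affymetrix ATH1 arrays, with 3 arrays per line and 9 in all. Control line C2S1 is a wild type according to its titles, although its genetic variation is labelled as a knock out mutation. Lines 348 and 409 are labelled as T-DNA knock out mutants, and the labels name neither the disrupted gene nor an agent or transgene, so no targeted gene could be checked first. The labels do not say how many insertions each line carries. Nothing says whether the arrays of a line came from separate plants or plates, so p-values reflect the spread among the arrays alone, possibly a technical one.

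The deposited MAS5 signals, linear intensities, had been scaled to the same trimmed mean on every array, and the number of arrays limits the precision. For any pair of replicate arrays, r lay from 0.963 to 0.985 over the 14199 probe sets in the test. It was taken across probe sets of widely differing brightness, which by itself raises r. The SD of the log2 difference between replicate arrays was 0.270 to 0.339 in the control and in line 348, and 0.361 to 0.423 in line 409. Markers fixed for leaf photosynthesis were bright on every array, with LHCB4.1 between 4480 and 5562 signal units, and so was the root marker PYK10, between 2340 and 3641. Only 3 of 8 leaf markers and 1 of 4 root markers had a probe set of a single named gene. None of the 6 flower markers and none of the 12 seed and endosperm markers had one in the table used, so those tissues were not checked. Whole plants mix many cell types, and fewer cells with a transcript cannot be told apart from less transcript per cell.

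Only 1 of the 3 DME probe sets lay well above the limit for testing on every array. This bright probe set had signals of 84.9, 69.9 and 80.5 on the control arrays, 90.8, 77.9 and 81.8 on those of line 348, and 91.9, 73.4 and 103 on those of line 409. All 9 values lay above the 40th percentile of their array, at percentiles 63.0 to 72.0 of all probe sets, and the values of the 3 lines overlapped. The highest was 1.47 times the lowest, and line 409 held both the highest value and the second lowest.

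The dim DME probe set lay near the limit for testing. Its signals were 22.3, 12.6 and 17.1 in the control, 18.1, 28.6 and 21.8 in line 348, and 12.5, 29.7 and 14.2 in line 409. Only 4 of the 9 values exceeded the 40th percentile of their array, which was 20.6 to 23.9 signal units, so the probe set entered the test by a narrow margin, since 3 such arrays were required. Of these 4 values, 2 came from line 348, 1 from the control and 1 from line 409. Entry into the test thus leaned on line 348, the line with its highest mean. The lines overlapped, and the highest and the lowest value of all arrays both came from line 409.

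The dimmest DME probe set had signals of 12.6, 23.5 and 6.10 in the control, 9.05, 10.3 and 18.6 in line 348, and 7.41, 15.1 and 2.17 in line 409. A single control array exceeded the 40th percentile, so it was not tested. RefSeq lists AT5G04570 and AT5G04580 as synonyms of DME, and the tables used here do not say which part of the gene each probe set matches. Levels were therefore not compared between the probe sets, only their pattern over arrays.

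MPC lay above the 40th percentile on all 9 arrays. Its signals were 53.0, 49.7 and 55.1 in the control, 59.9, 66.3 and 55.4 in line 348, and 52.9, 40.4 and 77.7 on the arrays of line 409. The control values lay close together and all below those of line 348, while line 409 spanned both other lines and held the lowest and the highest value. They stood at percentiles 51.4 to 65.3 of their arrays.

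**Figure D1:**
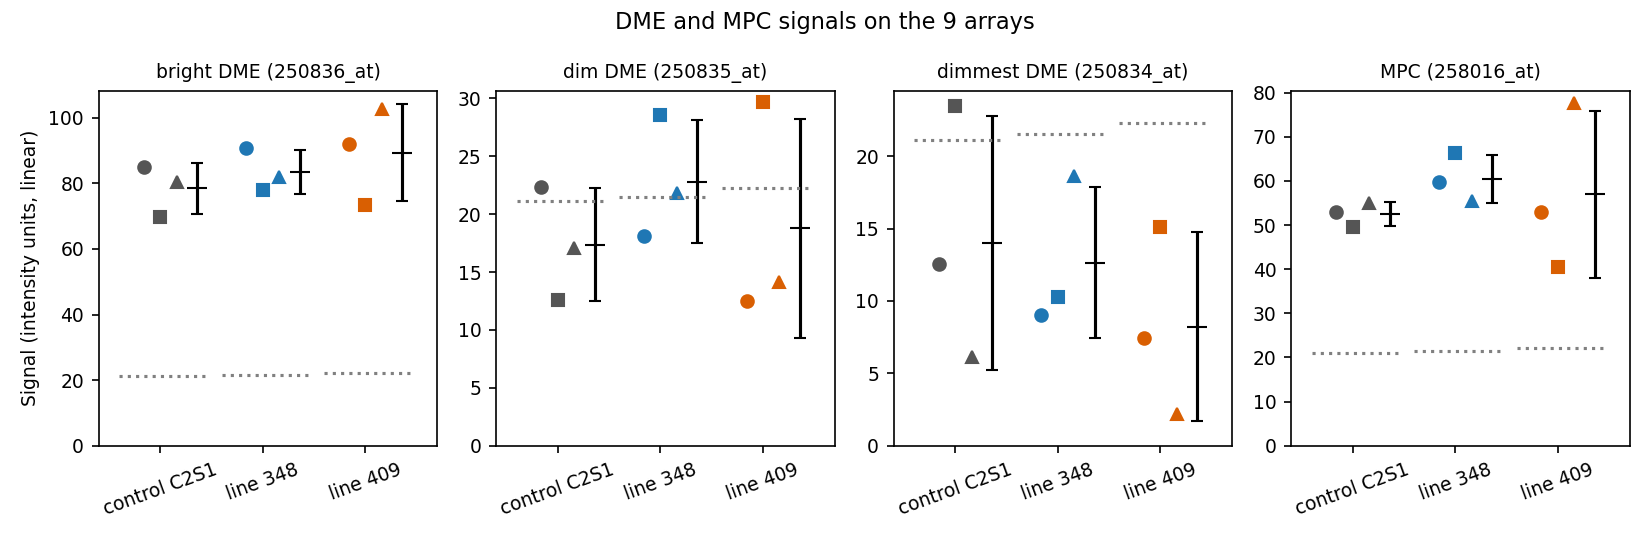
Signals in linear intensity units (y axis) of the 3 DME probe sets and the MPC probe set by line (x axis); circles, squares and triangles are replicates 1, 2 and 3, bars are the mean and SD of 3 arrays, and dotted lines are the mean 40th percentile of the arrays of that line. Line 409 has the widest spread for the bright and dim DME probe sets and MPC, with MPC at 40.4 on replicate 2 and 77.7 on replicate 3.

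None of the 3 probe sets passed the test in any comparison of lines. The test was limma on log2(signal + 4.98), with a call at an adjusted p under 0.05 over all tested probe sets. The lowest unadjusted p of the 9 comparisons was 0.267. The mean of the bright DME probe set was 78.4 ± 7.73 in the control, 83.5 ± 6.62 in line 348 and 89.3 ± 14.8 in line 409 (SD, n = 3 arrays each). That of the dim one was 17.3 ± 4.88, 22.8 ± 5.31 and 18.8 ± 9.48 in the same order. For MPC it was 52.6 ± 2.75, 60.5 ± 5.46 and 57.0 ± 19.0. The control thus had the lowest mean for each of these, but the order of the mutant lines differed between them. For the dimmest DME probe set, not tested, the control had the highest mean, 14.0 ± 8.77, against 12.7 ± 5.21 in line 348 and 8.23 ± 6.51 in line 409. A limma F test over the 3 lines gave adjusted p = 0.847 for each DME probe set and 0.885 for MPC. Of the tested probe sets, 0.0563% passed this F test.

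In line 348 against the control, the bright DME probe set had a log2 change of 0.086 with a 95% confidence interval of -0.23 to 0.40. The dim DME probe set had a log2 change of 0.32, with an interval of -0.32 to 0.97, and the values of both lines overlapped. Changes larger than this in size were seen for 9.54% of tested probe sets. This share is only a description, since the dim probe set entered the test with 2 of its 4 arrays above the limit from line 348. MPC had a log2 change of 0.18, with an interval of -0.22 to 0.59. The limma adjusted p was 0.966, 0.932 and 0.938 for the bright probe set, the dim one and MPC. Limma called 0.0211% of tested probe sets in this comparison. MPC was higher on all 3 arrays of line 348 than on any control array, and 13.2% of tested probe sets were separated in either direction, so this alone is no result about MPC. The change of the bright DME probe set was -0.014 with the title number as a block, 0.010 without control replicate 2 and 0.028 without line 348 replicate 1, so its direction was not settled. That block is uneven, as the titles of line 348 are numbered 1, 1 and 3, and with it the change of MPC was 0.081. With single arrays left out, the dim DME change ran from 0.16, without control replicate 2, to 0.48, without control replicate 1. That of MPC ran from 0.12 to 0.24.

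In line 409 against the control, the bright DME probe set had a log2 change of 0.17 with a 95% confidence interval of -0.14 to 0.48, and the dim one of 0.042 with an interval of -0.60 to 0.69. MPC had a log2 change of 0.063 with an interval of -0.34 to 0.47. The limma adjusted p was 0.672, 0.974 and 0.927, and 0.0423% of tested probe sets were called. For MPC the log2 change was -0.17 without line 409 replicate 3 and -0.025 with array weights, so its direction was not settled. For the dim DME probe set it was -0.27 without line 409 replicate 2, -0.12 without control replicate 2 and -0.044 with quantile normalization, so neither was this one. All 3 probe sets overlapped between line 409 and the control, where 17.7% of tested probe sets did not.

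In the direct comparison, line 409 against line 348, the log2 changes were 0.083 for the bright DME probe set, -0.28 for the dim one and -0.12 for MPC. Their 95% confidence intervals were -0.23 to 0.40, -0.93 to 0.37 and -0.53 to 0.28. The limma adjusted p was 0.932, 0.864 and 0.924, with 0.0141% of tested probe sets called. All 3 overlapped between the lines, where 11.1% of tested probe sets did not. The change of the bright probe set turned to -0.019 without line 409 replicate 3, and that of MPC to 0.082 without line 409 replicate 2. All 9 confidence intervals of the 3 comparisons had limits of opposite sign, so no direction was settled, also where the sign held under the alternatives. They lay inside a range of 2-fold in either direction on this scale, as did those of 95.6% to 96.9% of tested probe sets in each comparison. For the dim DME probe set, whose intervals were the widest, this depended on the pseudocount. Without it, its interval was -0.43 to 1.24 in line 348 against the control and -1.20 to 0.47 in line 409 against line 348.

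**Figure D2:**
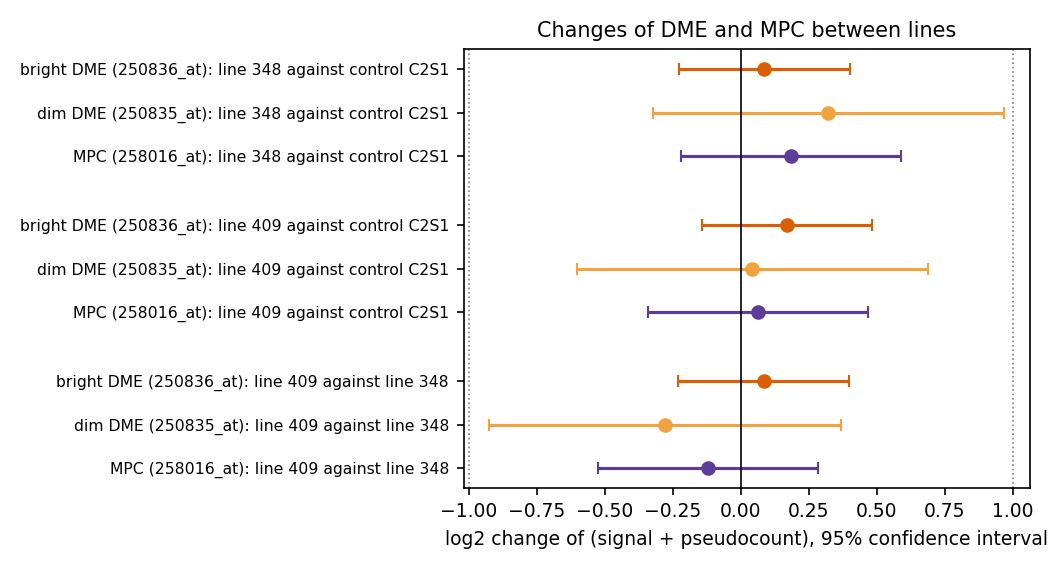
Log2 changes (x axis, on the scale of signal plus pseudocount) of the DME and MPC probe sets in the 3 comparisons (y axis), with 95% confidence intervals from limma on 9 arrays; dotted lines mark a 2-fold change. Every interval includes 0, and that of the dim DME probe set in line 348 against the control, -0.32 to 0.97, reaches farthest.

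The spread between replicate arrays differed by line. On the log2 scale the SD of MPC was 0.069 in the control, 0.12 in line 348 and 0.43 for line 409 (n = 3 each). Of all tested probe sets, 83.1% had a larger SD than MPC in the control and 8.51% had a larger one in line 409. The SD of the dim DME probe set was 0.32, 0.27 and 0.54, and in line 409 it was exceeded by 3.89% of tested probe sets. That of the bright one was 0.14, 0.11 and 0.23, with 38.9% of tested probe sets above it in line 409. The median SD over all tested probe sets was 0.15 in the control, 0.16 in line 348 and 0.19 in line 409, so replicate arrays of line 409 were also the least alike as a whole.

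Pooled over the 3 lines, the residual SD was 0.39 for the dim DME probe set, 0.17 for the bright one and 0.26 for MPC on the log2 scale. Among probe sets whose mean lay within 0.25 log2 units of theirs, 66.5%, 39.9% and 74.1% had a smaller one. The dim DME probe set and MPC were therefore somewhat more variable than the median probe set of their brightness, and the bright DME probe set somewhat less.

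Replicates 2 and 3 of line 409 stood far apart for MPC and the dim DME probe set. From replicate 2 to replicate 3 the log2 difference was 0.86 for MPC, 0.46 for the bright DME probe set and -0.86 for the dim one. Larger differences in size between these arrays were seen for 2.66%, 17.9% and 2.79% of tested probe sets, in that order. Replicate 3 of line 409 also had the highest 40th percentile of all arrays, 23.9 signal units against 20.6 to 22.0 on the others.

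The 2 DME probe sets had no positive correlation. Across the 9 arrays, their log2 signals had Pearson r = -0.38 with exact permutation p = 0.315 and Spearman rho = -0.38 with exact permutation p = 0.313. After Benjamini-Hochberg adjustment over the 3 relations examined, these two-sided p-values were 0.472 and 0.469. Without the arrays farthest from the median of the dim probe set, replicate 2 of line 348 and replicate 2 of line 409, r was -0.035. Without control replicate 2 it was -0.83 with exact permutation p = 0.0106, adjusted p = 0.0318. Leaving out any other single array did not take this relation past the threshold. With line 409 replicate 2 left out r was -0.21, and with line 409 replicate 3 left out it was -0.23. Computed on deviations from the mean of each line, r was -0.49 with exact permutation p = 0.407.

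Agreement between probe sets of the same gene was modest in these data in general. There were 49 other genes with a pair of tested probe sets of a single named gene. Their median r across the 9 arrays was 0.21, with a range from -0.60 to 0.86. Of these 49 pairs, 14 had r below 0 and 6 had a lower r than the DME pair. Among the 17 pairs that also held a dim probe set, with a mean log2 signal under 5.08, the median was 0.24 and 4 had a lower r than DME. The arrays are shared by all these pairs, and this is a description.

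**Figure D3:**
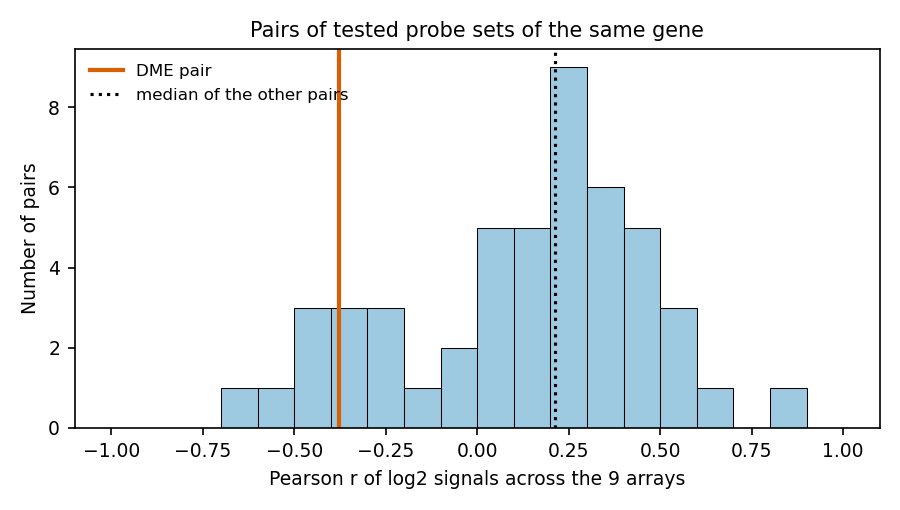
Number of pairs (y axis) by Pearson r of log2 signals over the 9 arrays (x axis) for the 49 other genes with a pair of tested probe sets. The orange line marks DME at -0.38 and the dotted line the median of the other pairs, 0.21.

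DME and MPC were then set against each other across arrays. The bright DME probe set and MPC had Pearson r = 0.68 with exact permutation p = 0.0416, two-sided, and adjusted p = 0.125 over the 3 relations. Spearman rho was 0.52 with exact permutation p = 0.162 and adjusted p = 0.469. The relation thus did not pass after adjustment on all 9 arrays. The arrays farthest from the median of the bright probe set were control replicate 2 and line 409 replicate 3. Without them r was 0.38 with exact permutation p = 0.418, over a narrower range of signal. Leaving out control replicate 2 alone gave r = 0.68 and leaving out line 409 replicate 3 alone gave 0.42, so of these arrays the latter moved r more. Without replicates 2 and 3 of line 409, a choice made after seeing the data, r was 0.17. Without line 348 replicate 2, r was 0.83 with adjusted exact permutation p = 0.0411. On deviations from the line means, r was 0.75 with exact permutation p = 0.162.

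The dim DME probe set had r = -0.24 with MPC, with exact permutation p = 0.544 and the same value after adjustment. Its Spearman rho was 0.017 with exact permutation p = 0.982. The sign of r turned to 0.18 without line 409 replicate 2, and r was 0.75, with exact permutation p = 0.0498 and adjusted p = 0.149, without replicates 2 and 3 of line 409. With the arrays farthest from the median of the dim probe set left out it was -0.086, with line 409 replicate 3 left out -0.028, and with line 348 replicate 2 left out -0.50. On deviations from the line means it was -0.43 with exact permutation p = 0.648. Pearson r against MPC thus had opposite signs for these DME probe sets. Spearman rho was 0.52 for the bright one and 0.017, almost no relation, for the dim one. The difference between the correlations was not tested.

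**Figure D4:**
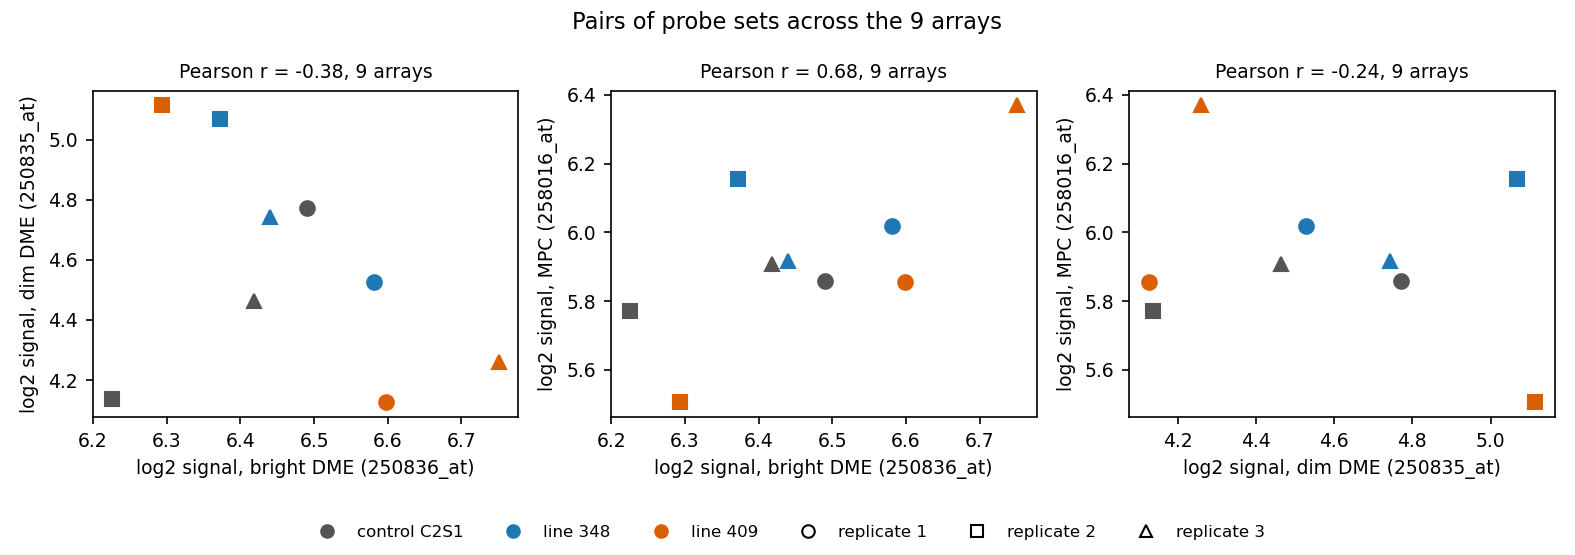
Log2 signals (both axes) of each pair among the bright DME, dim DME and MPC probe sets on the 9 arrays, with colour for the line and symbol for the replicate. In the panel of bright DME and MPC (r = 0.68), line 409 replicate 3 lies alone at the upper right and line 409 replicate 2 is the lowest point.

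Among the other 14198 tested probe sets, 3.20% had a higher r with MPC than the bright DME probe set had. In turn, 2.42% had a higher r with the bright DME probe set than MPC had. Both shares describe the same 9 arrays and are no test. The r between these probe sets was 0.17 without replicates 2 and 3 of line 409. The 5th and 95th percentiles of r with MPC were -0.61 and 0.63 over these 9 arrays. The named genes most like MPC were AT5G19875 (r = 0.95), AT4G27652 (r = 0.93), AT2G12400 (r = 0.93), AT4G30060 (r = 0.92) and AT2G40760 (r = 0.91), out of 7632 named probe sets. Those most like the bright DME probe set were AT1G12020 (r = 0.92), AT1G54110 (r = 0.92), AT5G62150 (r = 0.92), CKS (r = 0.90) and AT1G79520 (r = 0.89). CKS encodes CMP-KDO synthetase, which activates a sugar found in pectin. Those most like the dim one were AT5G49430 (r = 0.88), AT2G22610 (r = 0.87), AT1G69330 (r = 0.87), AT5G40600 (r = 0.87) and AT4G38090 (r = 0.86). No gene appeared in more than 1 of these lists, which were picked for high r over the same 9 arrays and carry no test.

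Little else of the pathway could be read with the gene assignments used, which gave 13513 of the 22746 probe sets a single named gene. The other probe sets were not searched, so a gene without one here may still be measured on the array. Of the 16 genes of the list for the DME family and demethylation, 4 had a probe set of a single named gene, DME included. ROS1, DML2 and DML3, the other glycosylases of the family, had none, and neither did any of the 17 genes of the DNA methylation list or the 8 poly(A)-binding protein genes. Of the 18 imprinted and Polycomb genes, MPC alone had one. In neither mutant line did any tested member of these lists pass the limma test, against the background shares given above. None had an unadjusted p under 0.05, which 5.64% of tested probe sets had in line 348 and 12.2% in line 409, so with 6 tested probe sets a count of 0 sets them apart in no way.

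The remaining members of the demethylation list were the loci AT3G14890, AT3G48425 and AT4G36050, to which the probe gene table and RefSeq give no symbol. The signal of AT3G14890 was 65.9, 66.3 and 64.7 on the control arrays and 63.4, 60.3 and 47.3 on those of line 348, which did not overlap, as 13.2% of tested probe sets did not. The log2 change was -0.20 in line 348 and -0.030 in line 409, whose arrays overlapped the control, and limma gave adjusted p-values of 0.906 and 0.954. For AT4G36050 the log2 change was -0.39 in line 348 and -0.21 for line 409, and limma gave adjusted p-values of 0.885 and 0.734. For AT3G48425 the log2 changes were 0.055 and -0.0064, with limma adjusted p-values of 0.982 and 0.994.

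Neighbouring genes, chosen after the values of DME and MPC had been seen, were read to show whether the surrounding loci differed. DME lies between AT5G04550 and SIR, the sulfite reductase of sulfur assimilation, in the RefSeq gene order. The signals of SIR were 610, 728 and 487 on control arrays against 753, 913 and 864 on arrays of line 409, with no overlap. Its log2 change was 0.48 with a 95% confidence interval of 0.19 to 0.78, and the limma adjusted p was 0.206, so it did not pass. The SIR change in line 348 was 0.23 on the log2 scale, with a limma adjusted p of 0.885. For AT5G04550, log2 changes were -0.070 and -0.14.

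MPC lies between AT3G19340 and AT3G19360. AT3G19360 had signals of 48.5, 38.7 and 44.9 in the control, 34.9, 17.5 and 31.5 in line 348, and 32.0, 31.7 and 25.2 in line 409, with all mutant values below all control values. Against the control, which both comparisons share, its log2 change was -0.61 for line 348 and -0.50 for line 409. Limma gave adjusted p-values of 0.784 and 0.387. For AT3G19340 the log2 change was -0.054 for line 348 and -0.38 for line 409, and the limma adjusted p-values were 0.975 and 0.263. All 6 mutant arrays lay below every control array for 2.71% of tested probe sets and on the same side of them for 4.46%. Line 409 alone did not overlap the control for 17.7%, a separation that AT3G19340 and SIR also had.

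**Figure D5:**
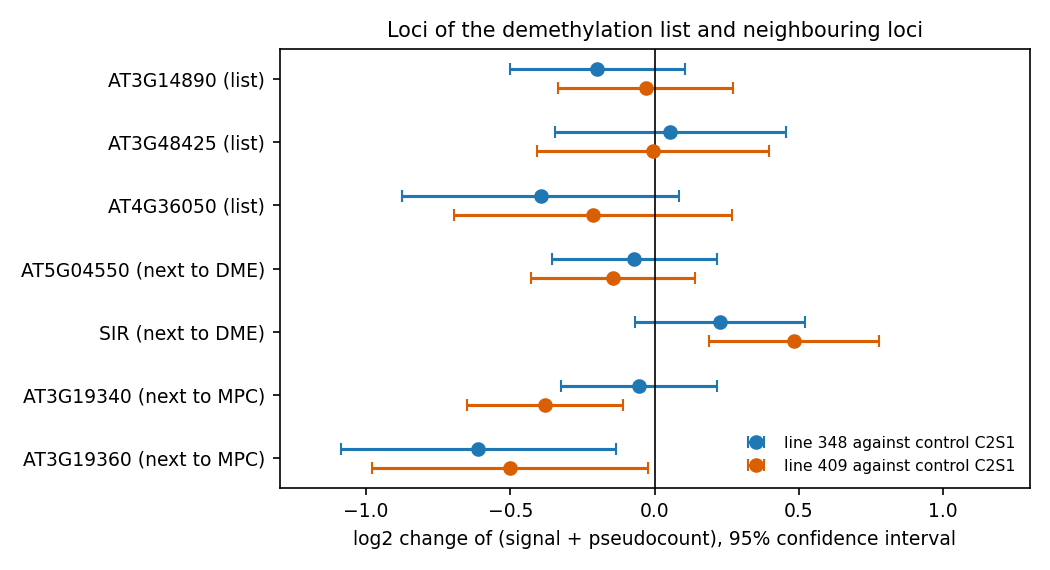
Log2 changes (x axis, signal plus pseudocount) with 95% confidence intervals for 3 loci of the demethylation list and the 4 genes beside DME and MPC (y axis), in line 348 (blue) and line 409 (orange) against the same control arrays. The largest change is that of AT3G19360 in line 348, -0.61, and no adjusted p passed the threshold.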

How the data were processed

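The starting material was total RNA from 9 samples, 1 per ATH1 array, and the label was biotin. The authors' deposited values are linear intensity signals; the submitters' processing notes name MAS5 and GCOS without a version. The authors' scaling was kept. After leaving out 64 control probe sets, log2 was taken of each signal plus 4.98 (the arrays' median 20th percentile). The test covered 14199 probe sets that exceeded the 40th percentile on 3 or more arrays. Changes were fitted with limma 3.58.1 in R 4.3.3 over all 9 arrays, with an intensity trend and Benjamini-Hochberg adjustment over all tested probe sets; a call is an adjusted p under 0.05. Fold changes on this scale understate changes of dim probe sets. Correlations used exact permutation of the arrays, and within-line ones permuted arrays within lines.

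The bright DME probe set is 250836_at, the dim one 250835_at and the dimmest 250834_at; MPC's is 258016_at. Samples were grouped by line; line 348's titles are numbered 1, 1 and 3, so replicate numbers follow sample order. Genes were named through the table of probe genes and RefSeq (13513 probe sets with 1 gene). Named genes were the 3 probe sets, tested members of 4 gene lists, markers, and the 5 named genes most like each probe set. The members and lists were chosen with earlier results of these data known. The code was tested on simulated data. Alternatives were other normalizations, pseudocounts, filters, variance models, sample sets, each array left out, and the title number as a block. No sequence is printed.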

Additional observations from a re-analysis of the deposited data

How the results depend on the processing

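Across 165 recomputed log2 changes of the DME and MPC probe sets, limma called none, and the lowest adjusted p was 0.525. In 8 of them the sign turned. Beyond single arrays left out, these were -0.044 for the dim DME probe set in line 409 against control with quantile normalization, -0.025 for MPC in line 409 against control with array weights, and -0.014 for the bright DME probe set in line 348 against control with the title number as a replicate block. Leaving out single arrays gave -0.27 to 0.23 for the dim DME probe set and -0.17 to 0.27 for MPC in line 409 against control, and -0.019 to 0.21 for the bright DME probe set and -0.35 to 0.082 for MPC in line 409 against line 348. The dim DME probe set and MPC did not pass a filter at the 60th percentile and have no value there. With single arrays left out, r ran from -0.83 to -0.21 for the 2 DME probe sets, -0.50 to 0.18 for the dim DME probe set and MPC, and 0.42 to 0.83 for the bright DME probe set and MPC. For the dim DME probe set and MPC, Spearman rho was 0.017, and r was 0.75 without replicates 2 and 3 of line 409.

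Over all probe sets, 3 were called in line 348, 6 in line 409, 2 between the lines and 8 by the F test. In line 348 the count was 1 without the intensity trend, 10 with array weights, 6 with only the arrays compared and 1 with the replicate block, and 1 to 24 with single arrays left out. In line 409 it was 40 with array weights and 1 to 60 with single arrays left out. Between the lines it was 1 without a filter, 1 without the trend and 1 to 6 with single arrays left out, and for the F test 4 without a filter, 4 without the trend, 19 with array weights and 4 to 41 with single arrays left out. The highest counts in both mutant lines and in the F test came without control replicate 3, and that between the lines without line 348 replicate 2. The title numbers were not taken to pair the samples: deviations of same-numbered arrays of the control and line 409 correlated at 0.19, -0.037 and 0.10. The cause of these changes was not tested. The brightness of the dim DME probe set, near the 40th percentile, limits what it can show.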

Other observations

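The dimmest DME probe set, too dim to be tested, was set against the other probe sets after its values had been seen. Across the 9 arrays it had Pearson r = 0.28 with the dim DME probe set and r = -0.81 with the bright DME probe set, with exact permutation p = 0.468 and 0.00818, and adjusted p = 0.468 and 0.0245 over 3 added relations. Spearman rho for the dimmest DME probe set and the bright DME probe set was -0.70 with exact permutation p = 0.0433 and adjusted p = 0.130. Without the arrays farthest from the median of the dimmest DME probe set, control replicate 2 and line 409 replicate 3, r was -0.43 with exact permutation p = 0.336, over a narrower range of signal. Leaving out each array in turn, r with the bright DME probe set kept its sign, and the adjusted exact permutation p was 0.0701 without control replicate 2 (r = -0.73), 0.234 without line 409 replicate 3 (r = -0.66), 0.0501 without line 409 replicate 1 and 0.0527 without line 409 replicate 2. With MPC, the dimmest DME probe set had r = -0.68 with exact permutation p = 0.0452 and adjusted p = 0.0678, and r was -0.34 without the same 2 arrays and -0.39 without line 409 replicate 3 alone. On deviations from the line means, r was -0.79 with the bright DME probe set and -0.82 with MPC, with exact permutation p = 0.0556 and 0.0185 and adjusted p = 0.0833 and 0.0556, so neither passed. The dimmest DME probe set lay below the 40th percentile on 8 of the 9 arrays. Its signals ran from 2.17 to 23.5 against a pseudocount of 4.98. These added relations were not recomputed with another pseudocount or normalization.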
